A study of Drosophila melanogaster with 12 samples.

Results

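The genes described here act in the pteridine metabolism that gives the fly eye its red pigments, or beside it. They are Pu, pr, se, cl, Hn and ry, which encode enzymes and an enzyme partner of pteridine metabolism, and bw, which encodes a transporter subunit. They were taken by FlyBase symbol from a list of 7 names, and all 7 have a row among the 13515 genes of the table. Heads of Drosophila melanogaster were compared between 2 genotypes at day 10 of adulthood, with 6 libraries each. Controls were Elav-Gal4/+ and carried only the neuronal driver, while tau flies were Elav-Gal4/+;UAS-tauR406W/+, so both groups shared the driver. The driver directs human tau with the R406W change, known from inherited frontotemporal dementia, to neurons, photoreceptors included. Each library came from a pool of 18 heads of both sexes, and the labels name neither the w allele of the flies nor the marker genes of the transgenes. The human tau transgene has no row among these genes and was not analysed here.

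Pteridines start from GTP. Pu encodes GTP cyclohydrolase, which opens the path, and pr encodes the synthase of the next intermediate, 6-pyruvoyltetrahydropterin. From there one branch leads through se, an omega-class glutathione transferase that acts as pyrimidodiazepine synthase with the help of the glutaredoxin-like protein cl, to the red drosopterins. Another branch leads to tetrahydrobiopterin, the cofactor of Hn (phenylalanine hydroxylase) and of the enzymes that start dopamine and serotonin synthesis. ry encodes xanthine dehydrogenase, which makes the pteridine isoxanthopterin as well as urate. bw pairs with the protein of w to carry pteridine precursors into pigment granules, and the same w protein pairs with that of st to carry precursors of the brown ommochromes.

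Values are the authors' normalised counts per gene. Their totals ran from 24.65 to 30.24 M over the libraries, and the spacing of low values put depth at about 20.1 to 33.1 M read pairs for control and 25.7 to 41.4 M for tau libraries. A single read pair was worth 0.642 to 1.503 normalised counts, far below the level of every member. Control E, control F and tau B listed 433, 484 and 195 genes at 0, where the other libraries listed at least 1492, and results are also given without these 3 low-zero libraries. Over all 10845 genes tested with limma on log2(value + 1), 567 (5.23%) were called at an adjusted p under 0.05, 339 lower in tau (3.13%) and 228 higher (2.10%). An unadjusted limma p under 0.05 was found for 1972 of these 10845 genes.

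Of the 7 pteridine genes, 3 fell in tau heads (42.9%, against 3.13% of all tested genes), 4 did not pass the test and none rose (against 2.10%). Members were chosen with earlier results of these data known, so these shares only describe them and test nothing about the group. All 7 passed the filter on low values. The step that commits to drosopterins, se, fell 3.23-fold, the transporter subunit bw 1.67-fold and the synthase pr 1.30-fold. Fold values here are limma's, from mean log2 values, and can differ from the ratio of the arithmetic means. The other 4 had values below 0, of which ry and cl changed sign under other settings, and the median log2 fold change of the 7 was −0.22, against 0.008 over all tested genes. Groups did not overlap for 1 member, se, where 1.80% of tested genes lay wholly lower in tau, 1.58% wholly higher and 3.37% either way. In bulk RNA of whole heads, the RNA of a member cannot be assigned to pigment cells or to other cells. Fewer cells and less RNA per cell cannot be told apart either. Without the 3 low-zero libraries, and likewise without control A or without tau C, 1 of the 7 was called, which was se.

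**Figure D1:**
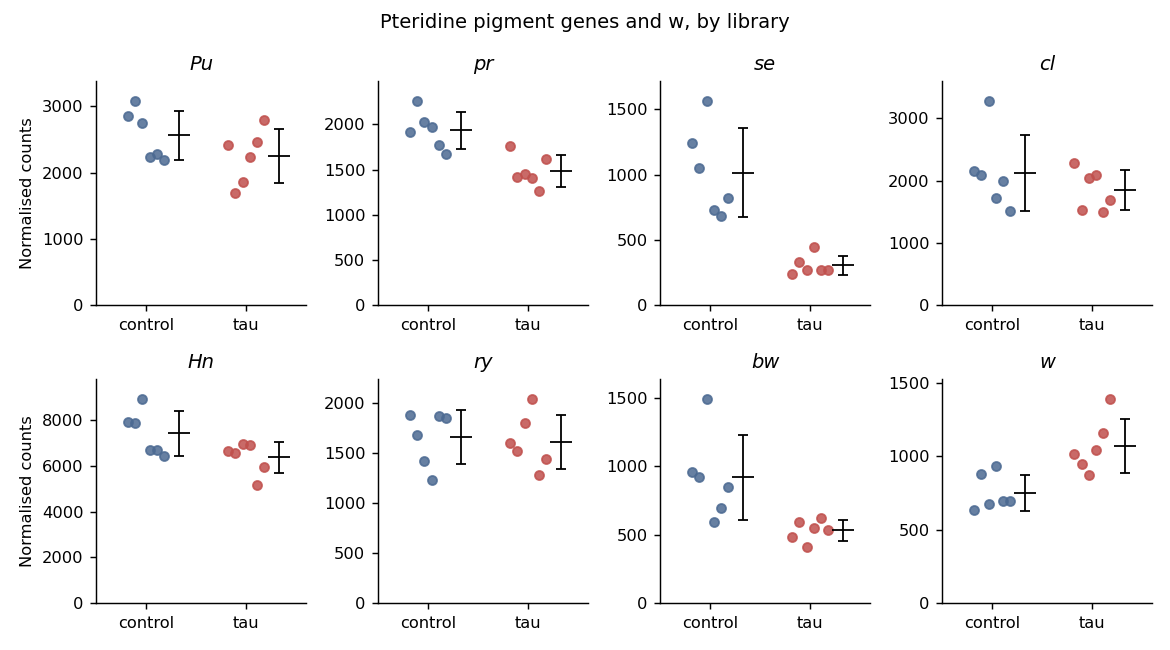
Normalised counts (vertical axes, from 0) of the 7 pteridine genes and w in the 6 control (blue) and 6 tau (red) libraries. Points are libraries, and the bar beside them is the mean with its SD. All tau points of se lie at or below 444, under the lowest control at 685, while those of ry overlap the controls.

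Pu (FBgn0003162; 2R, 21175315 to 21182608 in dm6), the entry enzyme, had 2197, 2515 and 3076 normalised counts as lowest, median and highest control. In tau heads the same 3 values were 1700, 2322 and 2798, so the groups overlapped, with tau B and tau C lying below every control. Means were 2565 ± 373 and 2246 ± 406 (SD, n = 6 per group), a log2 fold change of −0.20 ± 0.13 (SE; limma, adjusted p = 0.452). The 95% interval of that difference ran from −0.47 to 0.07 on the log2 scale.

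The next enzyme, pr (FBgn0003141; 2L, 20073719 to 20075458), ran from 1671 through a median of 1941 to 2254 in controls. Tau libraries ran from 1261 through 1433 to 1757. In 5 of 6 tau libraries pr was below the lowest control, and tau A reached into the control range. Its means of 1933 ± 204 and 1483 ± 175 made it the least variable of the 3 genes that fell, with a coefficient of variation of 10.6% in the controls and 11.8% in tau. The fall was 1.30-fold (log2 fold change −0.38 ± 0.10, limma adjusted p = 0.0304). This call stood close to the threshold: it was lost without any one of control A to D or tau B to E, at adjusted p from 0.0501 to 0.0738, and without the 3 low-zero libraries (adjusted p = 0.055). Recentring each library on photoreceptor genes left −0.24 ± 0.09 (adjusted p = 0.096). pr also lost its call with equal library totals (−0.28 ± 0.10, adjusted p = 0.0919) and without a variance trend (adjusted p = 0.0594). With a covariate for yolk protein genes it stood at −0.26 ± 0.11 (adjusted p = 0.375).

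At the branch to drosopterins, se (FBgn0086348; 3L, 8520552 to 8521489) showed the largest difference among the 7 members. Controls held 685, 935 and 1560 normalised counts as lowest, median and highest, and tau libraries 236, 273 and 444. Every tau library was below every control, and 3 of them, tau C, E and F, stood at 273 each. The tau mean of 306 ± 74.5 was 30.2% of the control mean of 1014 ± 341. On the log2 scale the difference was −1.69 ± 0.20, with a 95% interval from −2.12 to −1.26 (limma, adjusted p = 0.000455). Among the 339 genes lower in tau, se had the 6th smallest p-value and the 28th largest fold change. It kept its call in each of the 24 other settings, with log2 fold changes from −1.91 to −1.48.

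cl (FBgn0000318; 2L, 5520135 to 5521382), which works at the same step as se, did not pass the test. It had 1517, 2051 and 3274 normalised counts as lowest, median and highest control, against 1505, 1865 and 2277 in tau, with tau E just below the lowest control. Control C, the highest, stood far above the other controls, which ended at 2154. Means were 2129 ± 611 and 1855 ± 324, and the log2 fold change was −0.17 ± 0.16 with a 95% interval from −0.51 to 0.17 (limma, adjusted p = 0.649).

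The neighbours of se on chromosome 3L are its paralogues GstO1, GstO2 and GstO3, further omega-class glutathione transferases. None of these 3 passed the limma test, and none had an unadjusted p under 0.05. GstO3 had 937 ± 239 normalised counts in controls and 821 ± 80.4 in tau (adjusted p = 0.617), and GstO2 had 1535 ± 185 and 1415 ± 141 (adjusted p = 0.605). GstO1 was low in both groups, at 199 ± 35.7 and 232 ± 60.2 (adjusted p = 0.637). se overlaps the end of GstO2, which lies on the other strand, by 61 bases. The strand setting of the authors' quantification is not given in the sources used here, so reads of that stretch are uncertain between both genes.

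Hn (FBgn0001208; 3L, 7760453 to 7763166) had the most normalised counts of the 7 members. Its lowest, median and highest controls were 6426, 7309 and 8930, and those of tau 5149, 6617 and 6966. Tau E and tau F lay below all controls, and the groups otherwise overlapped. With means of 7429 ± 977 and 6372 ± 698, the log2 fold change was −0.22 ± 0.10 (limma, adjusted p = 0.264), with a 95% interval from −0.43 to just below 0. ry (FBgn0003308; 3R, 13032528 to 13038020) gave 1233, 1765 and 1883 in controls and 1283, 1555 and 2037 in tau. Its libraries overlapped throughout, with means of 1655 ± 271 and 1612 ± 270. The log2 fold change of ry was −0.04 ± 0.13, with a 95% interval from −0.31 to 0.24 (limma, adjusted p = 0.927), and its sign turned when libraries were rescaled to equal totals (0.07) or recentred on photoreceptor genes (0.11).

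For the transporter subunit bw (FBgn0000241; 2R, 23527805 to 23538499), controls gave 595, 885 and 1491 normalised counts as lowest, median and highest. Tau gave 412, 541 and 620, so that 5 of 6 tau libraries lay below the lowest control and tau E stood just above it. Controls spread widely, with a coefficient of variation of 34.1% against 14.1% in tau. The tau mean of 531 ± 75 was 57.9% of the control mean of 918 ± 313. The difference on the log2 scale was −0.74 ± 0.18 (limma, adjusted p = 0.026). The call was lost without control A, tau C or tau F (adjusted p from 0.0521 to 0.0647), without the 3 low-zero libraries (log2 fold change −0.87 ± 0.22, adjusted p = 0.0608), and with libraries recentred on photoreceptor genes (−0.59 ± 0.19, adjusted p = 0.0617). bw also lost it without a variance trend (adjusted p = 0.0686) and with a covariate for yolk protein genes (−0.53 ± 0.21, adjusted p = 0.328).

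Its partner w (FBgn0003996; X, 2790599 to 2796466) moved the other way. Controls gave 634, 694 and 935 normalised counts as lowest, median and highest, and tau 870, 1031 and 1390. In 5 of 6 tau libraries w was above the highest control, control D, and tau C fell within the control range. w rose from 751 ± 123 to 1072 ± 184 (log2 fold change 0.51 ± 0.13, limma adjusted p = 0.0297). Its call was lost without control A, C, E or F or tau E or F (adjusted p from 0.0539 to 0.0783), without the 3 low-zero libraries (adjusted p = 0.133), without a variance trend (adjusted p = 0.0638) and with a covariate for yolk protein genes (0.42 ± 0.16, adjusted p = 0.291). Many fly transgenes carry a copy of w as a visible marker, and transcripts of such a copy and of the gene itself cannot be told apart in these counts.

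**Figure D2:**
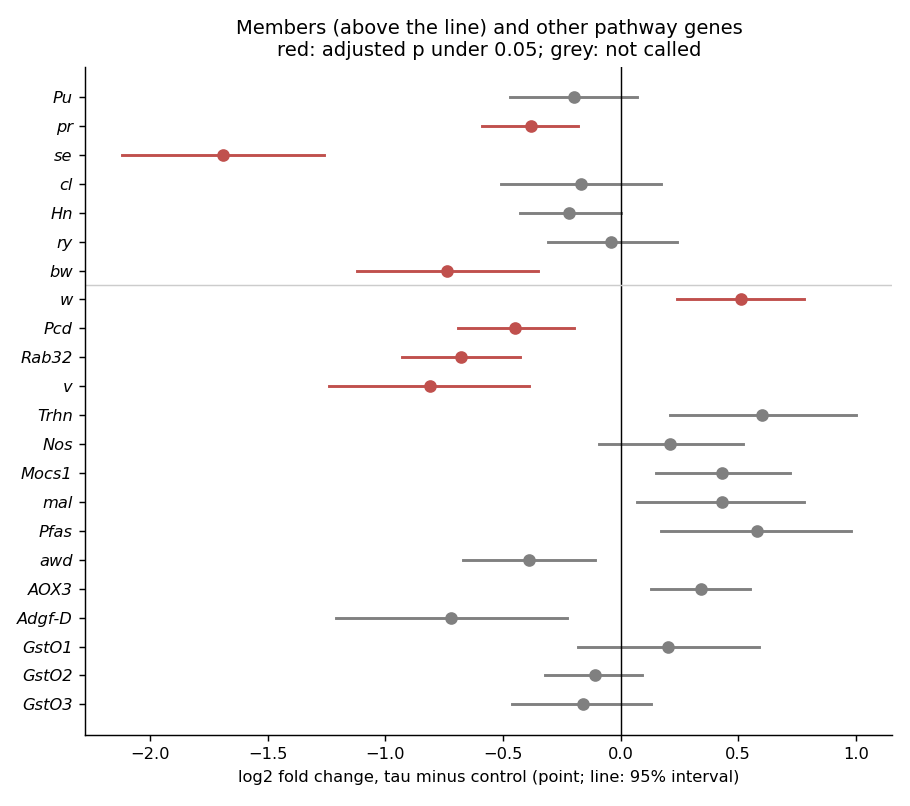
Log2 fold change of tau against control on the log2(value + 1) scale (points) with 95% intervals (lines) for the 7 members, above the grey line, and for the other pathway genes named by rule, below it. Red marks an adjusted p under 0.05. se stands farthest left at −1.69, and only w is red to the right of 0.

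The balance between genes of one step, or of consecutive steps for pr and Pu, was compared within each library as a log2 ratio, for 3 pairs. For se against cl the mean log2 ratio went from −1.09 ± 0.27 in controls to −2.61 ± 0.41 in tau (SD, n = 6 per group). All 6 tau ratios lay below the lowest control, a difference of −1.52 ± 0.20 (exact two-sided permutation p = 0.00216, adjusted 0.00325 over the 3 pairs). For bw against w the ratio went from 0.24 ± 0.60 to −1.01 ± 0.23, again with all 6 tau libraries below every control (−1.25 ± 0.26, exact permutation p = 0.00216, adjusted 0.00325). That p-value is the smallest that 6 against 6 libraries can give. For the consecutive enzymes pr and Pu the ratio was −0.40 ± 0.13 in controls and −0.59 ± 0.27 in tau. Their difference of −0.18 ± 0.12 did not pass (exact permutation p = 0.162, adjusted 0.162), and 3 tau libraries lay within the control range. These pairs were picked with earlier results on the same libraries known. The ratio of se to cl thus restates the fall of se beside cl, which was not called, and is no further evidence of it. Likewise the ratio of bw to w restates the fall of bw and the rise of w and is no further evidence of either. Tau flies carried 1 transgene more than controls, and whether it brings a marker copy of w, whose transcripts would lower that ratio, is not in the labels.

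**Figure D3:**
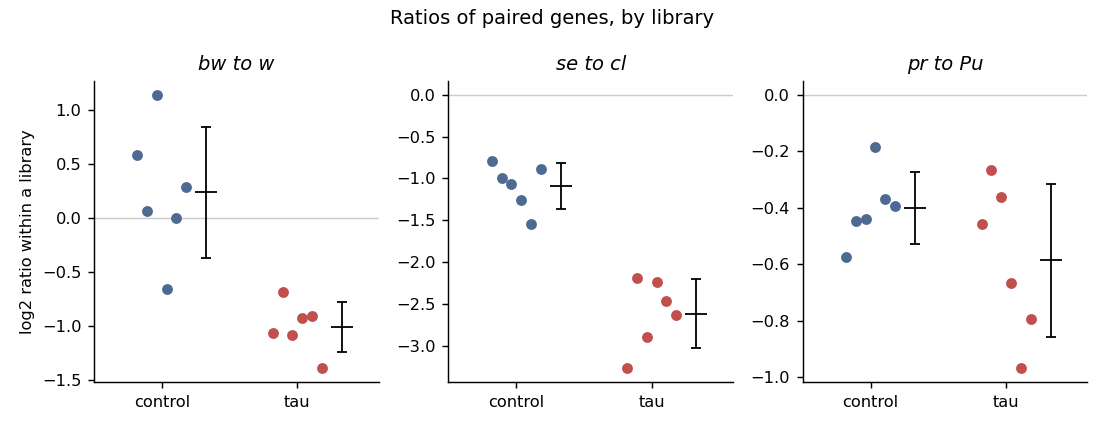
Log2 ratio of normalised counts within a library (vertical axes) for bw to w, se to cl and pr to Pu, in control (blue) and tau (red) libraries, with mean and SD beside the points. In the left and middle panels the 6 tau points lie below all control points, from −1.39 to −0.68 for bw to w and from −3.26 to −2.19 for se to cl, and in the right panel the groups overlap.

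Per kilobase of exon, the scale on which levels of different genes can be set side by side, control heads held most RNA of Hn, at 3512 ± 462 normalised counts per kb, and of cl, at 2974 ± 853. These were followed by pr (1801 ± 191), se (1229 ± 413) and Pu (1192 ± 173), and then at a distance by ry (382 ± 62.4) and bw (335 ± 114). Control libraries of neighbouring genes in this order overlapped for Hn and cl, pr and se, se and Pu, and ry and bw, but not for cl and pr or for Pu and ry. In tau heads se left its place beside Pu, with 371 ± 90.4 per kb against 1044 ± 189, and stood beside ry at 372 ± 62.3. bw came last in tau heads too, at 194 ± 27.4, with no overlap with se.

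The other enzymes of pterin metabolism, Sptr, Pcd, Dhpr and DhpD, were all measured. Of these 4, 1 fell and the other 3 did not pass the test, and their median log2 fold change was −0.17. Pcd, the dehydratase that recycles the tetrahydrobiopterin cofactor, had 622, 766 and 886 normalised counts as lowest, median and highest control and 470, 563 and 612 in tau. Its groups did not overlap, and it fell 1.36-fold (log2 fold change −0.45 ± 0.12, limma adjusted p = 0.0351). The call of Pcd was lost without any one of control B to E or tau C, D or F (adjusted p from 0.0539 to 0.0829) and without the 3 low-zero libraries (adjusted p = 0.0834). It was also lost with equal library totals (−0.34, adjusted p = 0.111), with photoreceptor recentring (−0.30, adjusted p = 0.141), without a variance trend (adjusted p = 0.054) and once yolk protein genes served as a covariate (adjusted p = 0.16). None of the other 3 tetrahydrobiopterin-dependent enzymes, ple, Trhn and Nos, was called by limma, and 1 had an unadjusted p under 0.05. That was Trhn, the neuronal tryptophan hydroxylase of serotonin synthesis, with 200 ± 30.3 and 311 ± 80.2 normalised counts (log2 fold change 0.60 ± 0.19, adjusted p = 0.0787, and 0.0288 without tau C). The nitric oxide synthase Nos had 531 ± 94.8 and 614 ± 106 (adjusted p = 0.484).

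On the side of supply, none of 9 genes of purine synthesis towards GTP was called by limma, and their median log2 fold change was 0.15. Of the 9, 3 had an unadjusted p under 0.05, where 1972 of all 10845 tested genes did. Pfas, an enzyme of the early purine pathway, had 5715 ± 1283 normalised counts in controls and 8704 ± 2867 in tau (log2 fold change 0.58 ± 0.19, adjusted p = 0.102). The nucleoside diphosphate kinase awd had 6327 ± 1630 and 4740 ± 542 (−0.39 ± 0.13, adjusted p = 0.112). Among 5 genes for the molybdenum cofactor that the enzyme of ry needs, none was called by limma and 2 had an unadjusted p under 0.05. Mocs1 had 437 to 600 normalised counts in controls and 653 to 1083 in tau, without overlap (log2 fold change 0.43 ± 0.13, adjusted p = 0.0773). mal, which attaches sulfur to that cofactor, had 343 ± 46.3 and 472 ± 138 (0.43 ± 0.17, adjusted p = 0.169). A list of 7 tested genes held purine breakdown genes beside ry and, apart from these, the aldehyde oxidase genes AOX1, AOX2, AOX3 and AOX4. None of the 7 was called by limma and 2 had an unadjusted p under 0.05. These were the aldehyde oxidase gene AOX3, which ran from 2420 to 2784 in controls and from 2789 to 4270 in tau (0.34 ± 0.10, adjusted p = 0.0564, and 0.0327 without tau A or 0.0405 without tau B), and the adenosine deaminase-related gene Adgf-D, at 8089 ± 2455 and 4894 ± 1684 (−0.72 ± 0.23, adjusted p = 0.0879, and 0.00942 without control B or 0.0374 without tau D). Rescaling to equal library totals, which moved the median of all genes to 0.111, called Mocs1, Pfas, AOX3 and Trhn higher (adjusted p from 0.0118 to 0.0354). Photoreceptor recentring called the same genes higher (adjusted p from 0.0209 to 0.0461). Array weights called Mocs1, Pfas and AOX3 higher (adjusted p from 0.0107 to 0.0341). With each library recentred on its median, AOX3 was called higher (adjusted p = 0.0353).

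Among 11 transporter genes listed as relatives of bw, w rose, 10 were not called and none fell, with a median of −0.07. An unadjusted limma p under 0.05 was found for 5 of them, w and CG31121 above 0 and st, CG4822 and CG9663 below. st, the other partner of w, had 408 ± 56.6 and 328 ± 42.3 normalised counts (−0.31 ± 0.13, limma adjusted p = 0.186). Of 13 genes of pigment granule trafficking, 1 fell, 12 were not called and none rose, and the median was −0.08. The gene that fell was Rab32, also known as lightoid, a small GTPase needed to build pigment granules. It ran from 5001 through 5884 to 7152 normalised counts in controls and from 2743 through 3968 to 4364 in tau, without overlap, a fall of 1.61-fold (log2 fold change −0.68 ± 0.12, limma adjusted p = 0.00291). Rab32 kept its call in all 24 other settings. On the ommochrome side 2 enzyme genes were tested. v, the tryptophan dioxygenase that opens the path to the brown pigments, fell from 1539 ± 577 to 839 ± 138, or 54.5% of the control mean (log2 fold change −0.81 ± 0.20, limma adjusted p = 0.0258). Its call was lost without control A, control E, tau E or tau F (adjusted p from 0.058 to 0.0632), without the 3 low-zero libraries (adjusted p = 0.118), with photoreceptor recentring (adjusted p = 0.0657), without a variance trend (adjusted p = 0.0767) and with a yolk protein covariate (adjusted p = 0.293). The other, cn, named because only 1 more gene was tested, stayed at or under 34.7 in every library and was not called.

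Some markers of the eye fell beside the pteridine genes. Of 9 markers of lens, cone and pigment cells, 4 fell, 1 rose (w) and 4 were not called. The 4 that fell were the lens protein genes Cpr72Ec and retinin, the pigment cell gene Pdh, and santa-maria, which was put in this list for its part in making the visual chromophore but is known to act in neurons and glia outside the retina. Cpr72Ec fell furthest of these, to 11.3% of the control mean (log2 fold change −3.25 ± 0.21, limma adjusted p = 5.2e-07). retinin stood at 40.8% (−1.30 ± 0.20, adjusted p = 0.00112). Pdh, a retinol dehydrogenase of pigment cells, had 34035 ± 9606 normalised counts in controls and 15986 ± 2424 in tau, or 47.0% of the control mean (adjusted p = 0.00112). santa-maria, a carotenoid receptor, stood at 73.0% (2967 ± 283 and 2165 ± 174, adjusted p = 0.00542). pinta, a retinoid-binding protein gene of pigment cells, stood at 96.2% and was not called (adjusted p = 0.846). The median log2 fold change of these 9 markers was −0.22. The summed level of the list ran from 43801 to 79587 in controls and from 20929 to 30278 in tau, and no marker was at 0 in any library. Pdh, Cpr72Ec and retinin held most of that sum, so it does not stand for the list as a whole. Of 24 photoreceptor genes, 4 fell (ninaA, Arr1, Arr2 and inaF-B), 20 were not called and none rose, with a median of −0.15 and sums from 1570918 to 1892695 in controls and 1307297 to 1674544 in tau. Most of the sum of this list was ninaE, which was not called. With each library recentred on that list, which moved the median of all genes to 0.155, se still differed by −1.55 ± 0.22 (adjusted p = 0.00129) and w by 0.66 ± 0.13 (adjusted p = 0.00732), and 1 of the 7 members was called. The part of the lens, cone and pigment cell markers in the falls of se, bw and pr was not tested.

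Markers of other cell types were counted in the same way. Of 10 haemocyte markers, 8 fell, and the median log2 fold change of the list was −0.80. Those that fell were eater, Sr-CI, PPO1, PPO2, srp, vkg, Col4a1 and Ppn. Hml (−0.19 ± 0.15, limma adjusted p = 0.59) and NimC1 (−0.67 ± 0.19, adjusted p = 0.0564) were not called. Whether the genes of this list are particular to haemocytes was not tested. The sum of the list ran from 73567 to 111889 in controls and from 44655 to 62115 in tau. In the list of 10 fat body markers 2 fell, and sums ran from 775591 to 2463918 in controls and from 562804 to 1468712 in tau. Yp1, Yp2, Yp3 and apolpp, none of them called, held most of these sums. The median log2 fold change of the fat body list was −0.90. Of its 10 genes, 9 had values below 0 and 7 an unadjusted limma p under 0.05. None of the 9 neuronal markers was called by limma, none had an unadjusted p under 0.05, and elav, the gene whose enhancer runs the driver, had 11227 ± 2134 and 12028 ± 918 normalised counts. Of 7 glial markers 1 fell, Eaat1, and of 8 muscle genes 1 rose, Act57B. Median log2 fold changes of the neuronal, glial and muscle lists were 0.04, −0.13 and 0.01. In these 5 lists only the fat body marker Fbp1 was at 0 in any library. With the mean of Yp1, Yp2 and Yp3, yolk protein genes of female fat body, as a covariate, se still differed by −1.48 ± 0.24 (adjusted p = 0.0119), while bw (−0.53 ± 0.21, adjusted p = 0.328) and pr (−0.26 ± 0.11, adjusted p = 0.375) were not called. In tau, Yp1, Yp2 and Yp3 stood at 55.7%, 38.8% and 51.1% of their control means, and none was called by limma. As this covariate was itself lower in tau on average, its effect and that of genotype cannot be fully told apart. The part of haemocytes and fat body in these results was otherwise not tested.

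**Figure D4:**
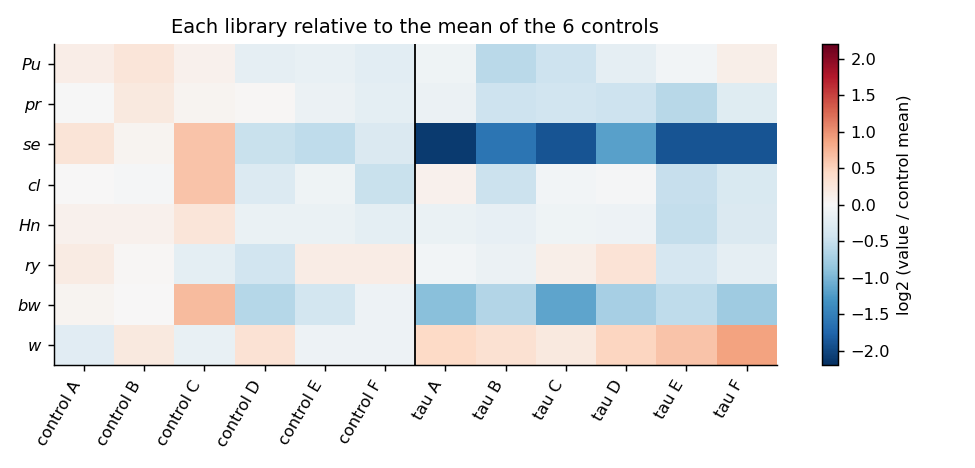
Log2 of each library's value over the mean of the 6 controls, by colour, for the 7 members and w (rows) in the 12 libraries (columns), with controls left of the black line. se is blue in all 6 tau libraries and w red in all 6, and control C is the reddest control for se, bw, cl and Hn.

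Members also varied among the control pools. Control C was the highest control for se (1560), bw (1491), cl (3274) and Hn (8930), but not for Pu, pr or ry. Within the controls, 17 of 21 pairs of members had a positive Pearson correlation of log2 values, with a median r of 0.61, and within tau 12 of 21, with a median of 0.13. For se and bw in controls r was 0.93 and Spearman's rho 0.94 (n = 6, exact permutation p = 0.00833 and 0.0167), and r was 0.85 without the 2 controls farthest from the median of se. In the tau libraries the same pair had an r of 0.34 and a rho of 0.60 (n = 6, exact permutation p = 0.514 and 0.242). Over the 42 relations, 5 had an unadjusted exact permutation p under 0.05 and 0 passed after adjustment (smallest adjusted p 0.117, also that of se and bw). The difference between controls and tau in these correlations was not tested.

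Over the 12 libraries, with each group centred on its own mean, the genes most like each member were ranked by Pearson's r as a description. For se these were Argl and Aldh, at r = 0.93 each, and both fell in tau as well (log2 fold changes −0.96 and −0.70, limma adjusted p = 0.016 and 0.0218). For bw they were CG10165 and Acat2 (0.92 each), and for pr CG32428 and smid (0.90 each). cl followed the respiratory chain genes ND-15 (0.98) and ND-MLRQ (0.97) most closely. Hn was most like Eglp4 (0.94) and Got2 (0.90), Pu most like CG9132 and CG1440 (0.91 each), and ry most like CG7156 (0.92) and Faa (0.82). Of these 14 genes, the 3 that were called, Argl, Aldh and Eglp4, were lower in tau. All genes of a library share its depth and the makeup of its pool of heads.

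**Figure D5:**
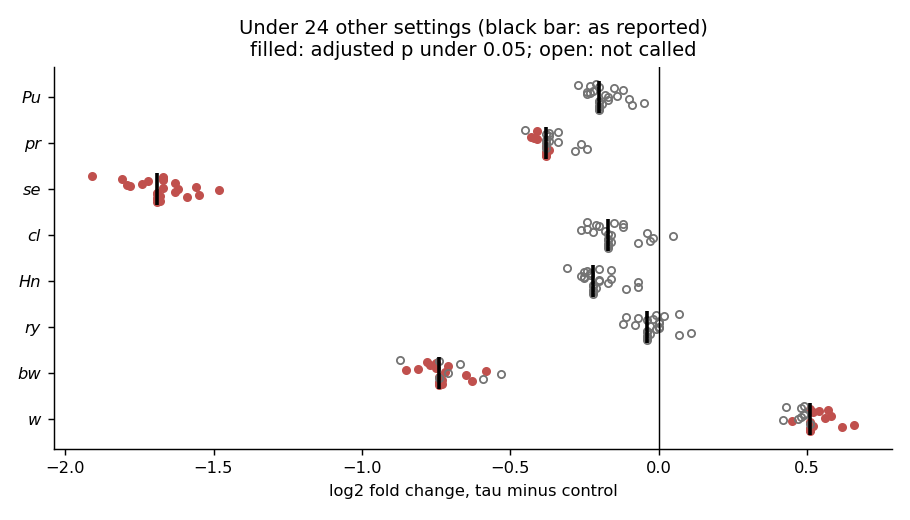
Log2 fold change of the 7 members and w (horizontal axis) as reported (black bars) and under 24 other settings (points), filled where the adjusted p was under 0.05. The points of se stay filled between −1.91 and −1.48, those of bw and pr are partly open, and those of ry lie on both sides of 0.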

How the data were processed

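Head RNA of 6 tau and 6 control libraries was described, each from 18 pooled heads. The labels call the pools independent, so p-values measure the spread between pools. Each deposited value is a signal: a gene's count that the authors scaled for the library with DESeq2, as the file is named and per the submitters' processing notes. The authors' tools were Trimmomatic 0.36, FastQC, Salmon 0.13.1 and DESeq2 1.24 with build dm6, per these notes. Per the file headers, 2 lanes were joined per library. The transcript annotation used and any filter on genes: not given in the sources used here. The spacing of small values gave the worth of a read pair, from which depth was estimated. Only 22.8 to 60.4% of values under 20 read pairs lay within 0.05 of a whole multiple, so no count model was run.

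Symbols came from a gene name table (13432 of 13515 identifiers), with RefSeq synonyms for older list names, and positions and exon lengths from Ensembl 115 (BDGP6, the coordinates of dm6). Groups were compared with limma 3.58.1 in R 4.3.3 (lmFit, eBayes with a variance trend) on log2(value + 1), which understates folds of low genes. Genes with a mean of at least 10 were tested, with two-sided tests and Benjamini-Hochberg adjustment over all of them, and called at an adjusted p under 0.05. For ratios, exact permutation tests, two-sided, were run. Alternatives changed the pseudocount (0.5, 5), the filter (none, 100), scaling, variance model, covariates or libraries.

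The text names all members, w, the paralogues of se, every called gene of the pathway lists, the 2 smallest adjusted p of lists with none, and the 2 genes most like each member. Members and lists were chosen with earlier results of these data known. Of the list names, 4 matched no gene alone. Over all tested genes, correlations between same-letter libraries in their deviations from the group means ran from −0.23 to 0.14. This measure cannot decide whether single genes were paired by letter.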

Additional observations from a re-analysis of the deposited data

Results flagged for a closer look

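A library was picked out where its gap to the nearest of the other 5 in its group took up more of the group's range than Dixon's test allows, over 50 groups of 6 values, of which chance picks about 1 in 20. There were 7. For the member cl it was control C, at 3274 normalised counts, with the other controls between 1517 and 2154. Control C also stood out for awd (9455, others 5043 to 6529) and for GstO3 (1395, others 688 to 931). In tau, GstO3 was low in tau B (670, others 813 to 891), and Mocs1 was high in tau D (1083, others 653 to 750). Tau A was high for awd (5779, others 4195 to 4760) and for GstO2 (1679, others 1308 to 1436). Leaving out control C moved the log2 fold change of cl from −0.17 to −0.04.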

How the results depend on the processing

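se was called in all 24 alternatives, and Pu, Hn, cl and ry in none. The count of members called, 3, was 1 when libraries were recentred on photoreceptor genes, without a variance trend, with the yolk protein covariate and without the 3 low-zero libraries (control E and F, tau B), and 1 to 3 when 1 library was left out. In these 4 settings bw had log2 fold changes of −0.59, −0.74, −0.53 and −0.87 (adjusted p from 0.0608 to 0.328) and pr −0.24, −0.38, −0.26 and −0.45 (adjusted p from 0.055 to 0.375), and rescaling to equal totals gave pr −0.28 (adjusted p = 0.0919). Leaving out 1 library gave se −1.81 to −1.56, bw −0.85 to −0.58, pr −0.43 to −0.34 and ry −0.12 to 0.02. ry turned to 0.07 with equal totals, 0.11 with photoreceptor recentring, 0.00 with the yolk protein covariate and 0.07 without the low-zero libraries. cl turned to 0.05 with the yolk protein covariate and GstO2 to 0.03 with photoreceptor recentring. The cause of these changes was not tested.

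Over all genes, 228 were called higher and 339 lower. Higher calls numbered 525 with equal totals, 946 with photoreceptor recentring, 424 with array weights, 54 with the yolk protein covariate and 138 without the low-zero libraries, and 147 to 242 with 1 library left out (fewest without tau C). Lower calls numbered 184 with photoreceptor recentring, 212 without a variance trend, 92 with the yolk protein covariate and 170 without the low-zero libraries, and 222 to 446 with 1 left out (fewest without control A). With the library letter as a replicate block, lower calls over all genes numbered 467 and higher calls 232. With this block se, bw and pr had log2 fold changes of −1.69, −0.74 and −0.38 and 3 members were called, so the block changed no call among the members. Of the other named genes, the block added calls of Pfas (adjusted p = 0.0498) and Adgf-D (adjusted p = 0.00814). The ratios kept their side of the threshold in every alternative run for them, 12 with 1 library left out and 4 others. The ratios of se to cl and of bw to w restate changes of single genes, so this adds no evidence for the calls of bw and w. Depth limits low genes such as cn most, and the members lie far above 1 read pair.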
